A study of Mus musculus with 24 samples.

Results

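Mice given psilocybin and kept in the dark were compared with mice that were placed in light without the drug, to find the genes that tell the 2 stimuli apart in the visual cortex. The comparison takes 12 of the 24 libraries, 6 psilocybin-dark and 6 light, with 1 library per mouse. All were male C57BL/6J mice of 8 weeks, housed in a reversed light cycle and studied in its dark phase. The psilocybin-dark mice received 5 mg/kg psilocybin and the light mice PBS in its place, and tissue was taken 2.5 h after the move into light or the start of the continued dark period. The other libraries are 6 dark mice (PBS, kept in the dark) and 6 psilocybin-light mice (5 mg/kg psilocybin and light). They entered the same fit and are cited only to place the members beside an unstimulated and a doubly stimulated cortex. The dark libraries also differed in tissue content, as given below. Groups follow the headings of the study's own count table, not the values. The sample labels give the same drug but the opposite light exposure for all 24 libraries, so by them the libraries called psilocybin-dark here would be psilocybin with light and those called light would be PBS in the dark. The same 12 libraries meet either way, so that every value below would stay as it is and only the group names would change. The activity-regulated gene Arc was at 617 to 1454 normalized counts in the 6 PBS libraries that the headings call dark and the labels light, and at 4915 to 13567 in the 6 PBS libraries that the headings call light and the labels dark.

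Psilocybin is converted in the body to psilocin, an agonist of serotonin receptors that acts chiefly through the 5-HT2A receptor on cortical neurons. Light after a period of darkness drives the visual cortex through the thalamus. Both kinds of stimulus can induce activity-regulated genes, first the early-response transcription factors such as Fos and Npas4 and then late-response genes, whose products act at synapses or are secreted, such as Bdnf. Beside these, 2 large sets of housekeeping genes are of interest here, those for the proteins of the cytosolic ribosome and those for the subunits of the mitochondrial respiratory chain and ATP synthase.

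The 2 stimuli were told apart by 66 of 14464 genes (0.456%), of which 28 (0.194%) were higher and 38 (0.263%) lower after psilocybin in the dark than after light. This count depended on the model and on single libraries, as it was 405 in DESeq2's Wald test, 3 to 328 when 1 library was left out, and 0 when transcript length and GC content were taken out as offsets, while all 66 genes kept their sign in each of these fits. Genes for cytosolic ribosomal proteins made up 11 of the 38 lower genes, and subunits of oxidative phosphorylation another 3. Among the 28 higher genes were ubiquitin ligases and deubiquitinases, transcription elongation factors and RNA helicases, groupings made after their values were seen. Differences were small, with absolute log2 fold changes of 0.16 to 0.64 and a median of 0.26. None of the genes of the early-response and late-response lists passed the threshold. Values are normalized counts, for which each library was brought to an effective size of 16058300 counts, log2 fold changes are psilocybin-dark minus light, and a gene is called at an adjusted p under 0.05 in edgeR's quasi-likelihood test. Of the 66 called genes, 44 had normalized counts that did not overlap between the 6 and 6 mice, as did 2.21% of all genes tested. At an unadjusted p under 0.05, 6.9% of all genes were higher and 7.45% lower, and counts of list members at that level are to be read against these shares. Of all 14464 genes, DESeq2 called 184 higher and 221 lower. Limma's voom with quality weights called 782 higher and 845 lower, 1627 in all. List members called by these 2 tests are to be read against those counts.

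**Figure D1:**
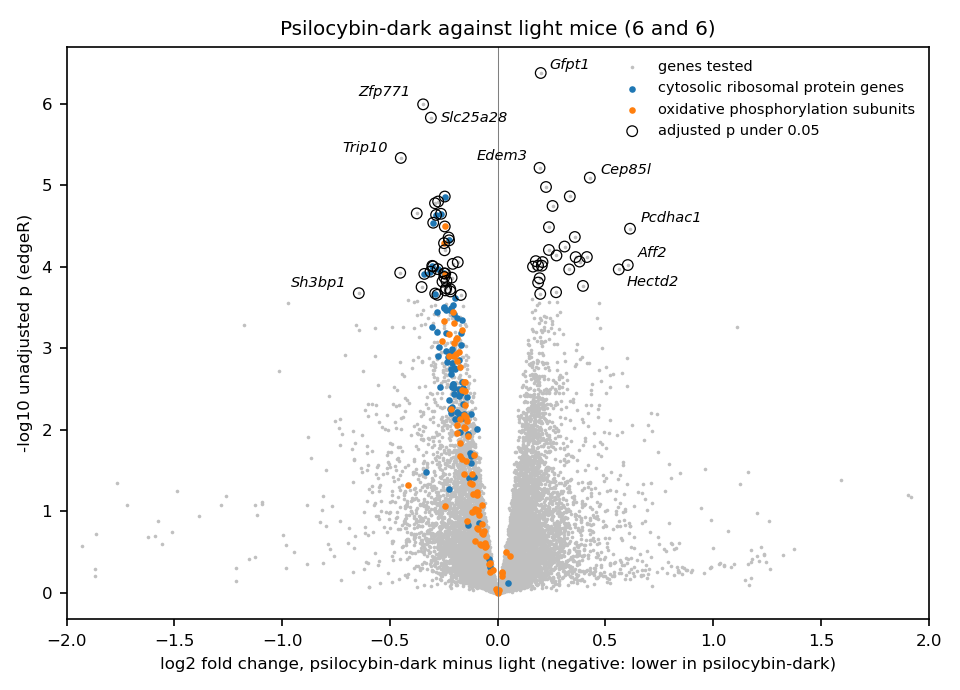
Each point is a gene, with the log2 fold change of psilocybin-dark against light mice on the horizontal axis and −log10 of the unadjusted edgeR p on the vertical axis. Rings mark the 66 called genes, blue points ribosomal protein genes and orange points oxidative phosphorylation subunits, which lie almost all to the left of 0. 13 genes lie beyond the axis limit of 2 on either side and none of them was called.

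The libraries hold between 13552516 and 17906994 counts, and the markers of cortical glutamatergic neurons were high in all 12 (summed level 4100.1 to 5848 counts per 1e6 counts, CPM), as the labelled tissue would have. Psilocybin-dark library 12 and light library 18 stood apart from the rest. Their summed level of 8 cerebellar neuron markers was 2205 and 1372 CPM, against 30.6 to 127 in the other psilocybin-dark and 31.7 to 45.8 in the other light libraries. Without both libraries 40 genes were called, 21 higher and 19 lower, of which 30 were among the 66, and all 66 kept their sign. Light library 14 carried choroid plexus RNA, with 1980 normalized counts of Ttr against 16.2 to 53.3 in the other light libraries, and psilocybin-dark library 10 the RNA of red blood cells, with a summed marker level of 293 CPM against 23.5 to 47.3. None of the 16 lists of cell type and region markers had a called gene in edgeR's test. Of their 121 genes, 3 were at an unadjusted p under 0.05, and DESeq2 called 1, the choroid plexus gene Ttr. When 1 library was left out in edgeR's fit, the log2 fold change of Ttr ran from −4.80 to −1.03. Some of these lists nevertheless lay on 1 side of 0. The log2 fold change was negative for 7 of 7 microglial markers (median −0.15) and 8 of 8 oligodendrocyte markers (median −0.12), and positive for 8 of 8 cerebellar markers (median 0.67). These medians were −0.10, −0.023 and 1.47 without libraries 12 and 18, and the part of these cells in the results was not tested. Dark libraries 1 and 6 had summed cerebellar markers of 2305 and 4814 CPM, against 64.1 to 180 in the other dark libraries. Their cortical glutamatergic markers summed to 1861 and 2366 CPM, against 4595 to 5700 in the other dark libraries. Hippocampal markers summed to 68.1 to 347 CPM in dark mice, 30.4 to 41.3 in psilocybin-dark and 33.95 to 49.2 in light mice. The part of this tissue in contrasts with dark mice was not tested. In bulk tissue, fewer cells of a type and less RNA per cell cannot be told apart.

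The lead of the higher genes was Gfpt1 (ENSMUSG00000029992, chr6:87019801-87069179, plus strand, GRCm39), which encodes the rate-limiting enzyme of the hexosamine pathway that feeds protein glycosylation. Its normalized count was 1363 to 1430.0 (median 1402) in psilocybin-dark mice and 1155 to 1254 (median 1232) in light mice, so the groups did not overlap. The log2 fold change was 0.20 ± 0.029 (SE), adjusted p = 0.00610, the smallest of all genes. Dark mice had a median of 1511 and psilocybin-light mice of 1173, which puts the psilocybin-dark mice nearer to the dark than to the light mice. Edem3 (chr1:151631057-151698085, plus strand), a mannosidase-like protein of the endoplasmic reticulum that marks misfolded glycoproteins for degradation, had counts of 1183 to 1329 (median 1243) in psilocybin-dark mice and 1036 to 1139 (median 1092) in light mice and a log2 fold change of 0.19 ± 0.033 (SE), adjusted p = 0.0177. These groups did not overlap either, and the medians of dark and psilocybin-light mice were 1316 and 1033. Cep85l (chr10:53149539-53256043, minus strand), a centrosomal protein, was at 344 to 447 (median 358) in psilocybin-dark mice and 259 to 329 (median 272) in light mice, without overlap (log2 fold change 0.43 ± 0.075 (SE), adjusted p = 0.0195). Slc7a1 (chr5:148264220-148336848, minus strand), a transporter of arginine and lysine, was at 769 to 1017 (median 937) in psilocybin-dark mice and 649.7 to 826 (median 726) in light mice, where the lowest psilocybin-dark mouse lay within the range of the light mice (log2 fold change 0.33 ± 0.061 (SE), adjusted p = 0.0217).

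**Figure D2:**
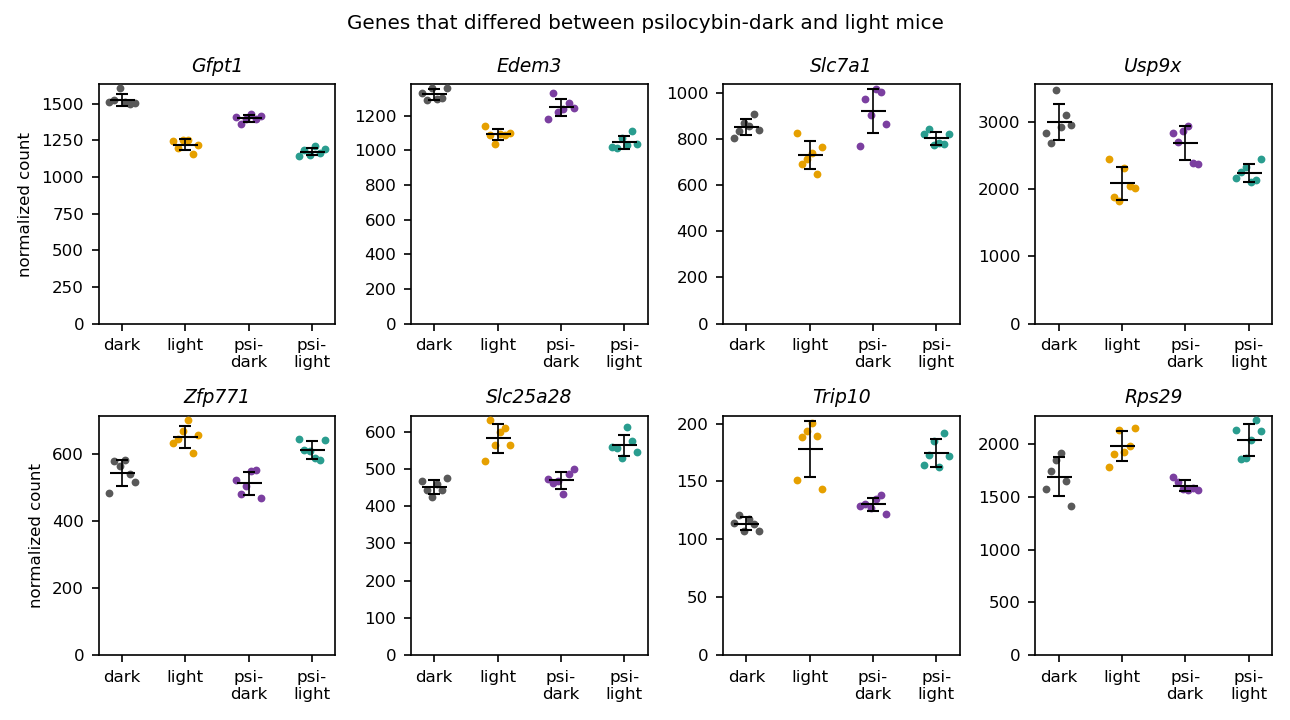
Normalized counts of 8 called genes, 1 point per mouse in the dark, light, psilocybin-dark (psi-dark) and psilocybin-light (psi-light) groups, with the mean and SD of 6 mice in black and axes from 0. In the upper row (Gfpt1, Edem3, Slc7a1 and Usp9x) the mean of psilocybin-dark mice lies above that of light mice, and the ranges of Slc7a1 and Usp9x overlap. In the lower row (Zfp771, Slc25a28, Trip10 and Rps29) the psilocybin-dark mice lie below the light mice without overlap.

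Some of the higher genes act in the ubiquitin system, a grouping made after their values were seen and for which no list was counted, and the ubiquitin ligase genes Rnf166 and Rbck1 were among the lower genes. Usp9x, a deubiquitinase linked to X-chromosomal intellectual disability, was at 2364 to 2941 (median 2763) in psilocybin-dark mice and 1820.0 to 2452 (median 2026) in light mice. Its ranges overlapped (log2 fold change 0.36 ± 0.075 (SE), adjusted p = 0.0360), and the dark mice had a median of 2930.3. Usp34, a very large deubiquitinase, was at 1855 to 2294 (median 2135) in psilocybin-dark mice and 1554 to 1912 (median 1654) in light mice, with overlap (log2 fold change 0.31 ± 0.063 (SE), adjusted p = 0.0341). Usp53, which belongs to the same protein family, was at 515 to 634 (median 545) in psilocybin-dark mice and 359 to 448 (median 436) in light mice and did not overlap (log2 fold change 0.41 ± 0.086 (SE), adjusted p = 0.0360). Hectd2, a HECT-type ubiquitin ligase, was at 227 to 397 (median 346) in psilocybin-dark mice and 201 to 282 (median 219.7) in light mice, and its lowest psilocybin-dark mouse lay inside the light range (log2 fold change 0.56 ± 0.12 (SE), adjusted p = 0.0363). Klhl11, a substrate adaptor of cullin ligases, was at 456 to 535 (median 501) in psilocybin-dark mice and 309.5 to 437 (median 381) in light mice and did not overlap (log2 fold change 0.40 ± 0.088 (SE), adjusted p = 0.0452). The 34 proteasome subunits tested had 0 called genes in this fit and a median log2 fold change of −0.028, with 5 of them at an unadjusted p under 0.05, 0 called by DESeq2 and 2 by limma's voom with quality weights.

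A further set of higher genes acts on transcription and RNA. Aff2, the gene silenced in FRAXE intellectual disability, was at 118 to 182 (median 145) in psilocybin-dark mice and 72.6 to 122.6 (median 95.7) in light mice, and the lowest psilocybin-dark mouse lay just under the highest light mouse (log2 fold change 0.60 ± 0.13 (SE), adjusted p = 0.0360). Its relative Aff4, the scaffold of the super elongation complex, named after its values were seen, was at 3835 to 4669 (median 4277) in psilocybin-dark mice and 3409 to 3852 (median 3523) in light mice, with overlap (log2 fold change 0.24 ± 0.046 (SE), adjusted p = 0.0260). Supt16, a subunit of the histone chaperone FACT, was at 972 to 1058 (median 1048) in psilocybin-dark mice and 772 to 921 (median 883) in light mice, without overlap (log2 fold change 0.25 ± 0.047 (SE), adjusted p = 0.0217). Cdk12, a kinase of the RNA polymerase II tail, was at 435 to 461 (median 446) in psilocybin-dark mice and 339 to 419 (median 366) in light mice, also without overlap (log2 fold change 0.27 ± 0.061 (SE), adjusted p = 0.0486). Nr2c2, an orphan nuclear receptor, was at 1171 to 1486 (median 1353) in psilocybin-dark mice and 894 to 1213 (median 1013) in light mice, and these ranges overlapped (log2 fold change 0.38 ± 0.080 (SE), adjusted p = 0.0360). The helicase genes Dhx36, Ddx21 and Ascc3, named after their values were seen, had log2 fold changes of 0.18 (adjusted p = 0.0360), 0.21 (adjusted p = 0.0360) and 0.24 (adjusted p = 0.0350). Of the 27 transcription coregulators listed, edgeR called 0, with 10 at an unadjusted p under 0.05, DESeq2 called 1 and limma's voom 7. Their median log2 fold change was 0.091 with 21 above 0, and the smallest p was that of the histone deacetylase Hdac7, which pointed the other way. Hdac7 was at 258 to 298 (median 268) in psilocybin-dark mice and 351 to 391 (median 366) in light mice, without overlap, with a log2 fold change of −0.44 ± 0.11 (SE), adjusted p = 0.0572.

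At the cell surface, Pcdhac1, a clustered protocadherin, had the greatest log2 fold change among the higher genes. It was at 67.0 to 82.8 (median 77.1) in psilocybin-dark mice and 43.4 to 53.3 (median 50.6) in light mice, without overlap (log2 fold change 0.61 ± 0.12 (SE), adjusted p = 0.0260). The protocadherin alpha genes share their last exons, so that reads in them cannot be given to 1 gene with certainty. Adgrl3, the adhesion receptor latrophilin-3, was at 1429 to 1739 (median 1620.0) in psilocybin-dark mice and 1102 to 1489 (median 1249) in light mice, with overlap (log2 fold change 0.33 ± 0.071 (SE), adjusted p = 0.0363). Hsd17b7, a reductase of cholesterol synthesis, was the 1 called gene of 24 in the cholesterol list, at 442 to 588 (median 489.9) in psilocybin-dark mice and 365 to 444 (median 386) in light mice (log2 fold change 0.36 ± 0.071 (SE), adjusted p = 0.0302). Its ranges overlapped by a single light mouse. The list as a whole had 17 of 24 genes above 0 and a median of 0.047. A further 6 higher genes, named after their values were seen, were Tpp2, Eea1, Heatr3, Suco, Tnks and Dido1. Tnks, a tankyrase, and Eea1, an early endosome tether, had log2 fold changes of 0.19 (adjusted p = 0.0418) and 0.20 (adjusted p = 0.0360).

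Of the 38 lower genes, Zfp771 (ENSMUSG00000054716, chr7:126843239-126854136, plus strand), a zinc finger protein gene, had the smallest p. It was at 469 to 552 (median 513) in psilocybin-dark mice and 603 to 701 (median 652) in light mice, without overlap (log2 fold change −0.35 ± 0.052 (SE), adjusted p = 0.00716). Slc25a28 (chr19:43650480-43664460, minus strand), the mitochondrial iron importer mitoferrin-2, was at 432 to 498 (median 469.7) in psilocybin-dark mice and 521 to 632 (median 582) in light mice, likewise without overlap (log2 fold change −0.31 ± 0.048 (SE), adjusted p = 0.00716). The medians of the dark and psilocybin-light mice were 451 and 558 for Slc25a28, so the psilocybin-dark mice were near the dark and the light mice near the psilocybin-light mice. Trip10 (chr17:57555559-57570715, plus strand), an effector of the GTPase Cdc42 that bends membranes, was at 122 to 138 (median 129.8) in psilocybin-dark mice and 144 to 200.4 (median 189) in light mice and did not overlap (log2 fold change −0.45 ± 0.075 (SE), adjusted p = 0.0168). It was nearest the dark mice too, whose median was 114. Sh3bp1, a GTPase-activating protein for Rac, had the greatest log2 fold change of all called genes, −0.64 ± 0.15 (SE), adjusted p = 0.0486. It was at 56.1 to 85.6 (median 65.9) in psilocybin-dark mice and 84.4 to 136 (median 104) in light mice, and the highest psilocybin-dark mouse lay above the lowest light mouse. Both groups were above the dark mice, which had 29.2 to 50.1 (median 35.8).

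Other lower genes were Rnf166, a ubiquitin ligase, at 456 to 546 (median 489) in psilocybin-dark mice and 556 to 663 (median 614) in light mice without overlap (log2 fold change −0.29 ± 0.053 (SE), adjusted p = 0.0217), and Polr2f, a small subunit shared by the nuclear RNA polymerases, at 428 to 477 (median 457) in psilocybin-dark mice and 477 to 591 (median 549.8) in light mice with ranges that touched (log2 fold change −0.28 ± 0.051 (SE), adjusted p = 0.0217). Apba3, an adaptor that binds the amyloid precursor protein, was at 254 to 330.3 (median 274) in psilocybin-dark mice and 329.7 to 437 (median 351) in light mice (log2 fold change −0.38 ± 0.071 (SE), adjusted p = 0.0223). In Apba3 the light mouse of library 18 was far above the other 5, which ranged from 329.7 to 361. The RIKEN gene 4933439C10Rik was at 215 to 293 (median 242) in psilocybin-dark mice and 299 to 350.2 (median 345) in light mice, without overlap (log2 fold change −0.45 ± 0.10 (SE), adjusted p = 0.0369). Hsf1, the master transcription factor of the heat shock response, was the 1 called gene of 20 in the heat shock list, at 465 to 554 (median 519.8) in psilocybin-dark mice and 568 to 642 (median 616) in light mice, without overlap (log2 fold change −0.25 ± 0.050 (SE), adjusted p = 0.0350). The list had 13 values under 0 and 7 above, with a median of −0.042.

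Ribosomal protein genes formed the largest functional group. Their mRNAs carry a run of pyrimidines at the 5′ end, the terminal oligopyrimidine (TOP) motif through which growth signals control their translation as a set. Runs of pyrimidines near the annotated start can be seen in the RefSeq promoters of called members, shown here because they are the largest group among the lower genes. A run of at least 8 bases of C or T was searched on the gene's own strand within 50 bases of the start. It was present for 52 of the 59 ribosomal protein genes that had a promoter entry (88.1%), against 39.7% of the 10947 tested genes with an entry. The 7 called members with an entry have it, and Rpl8, Rps27a and Rps29 had no entry. The 30 bases around the run nearest the start are given 5′ to 3′ from RefSeq (GRCm38.p6), with the run in capitals, and all 7 lie on the plus strand.
Fau: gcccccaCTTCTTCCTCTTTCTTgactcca
Rpl13: cgtgacgtcaCTTCCCTTTCgcctgatttt
Rpl31: ctcgccacaCCTCTTCCTCCTCgcctcccc
Rpl36a: cggctctagCCTCTCTCTTTCCgagctgct
Rps19: accccgtcgTTCCCTTTCCCCTggctggca
Rps21: gcacgagctaCTTCCTTTCTgcgctctcgc
Rps25: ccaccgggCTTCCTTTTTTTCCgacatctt

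The windows are at chr19:6057937-6057966 for Fau, chr8:123102324-123102353 for Rpl13, chr1:39367824-39367853 for Rpl31, chrX:134585672-134585701 for Rpl36a, chr7:24884622-24884651 for Rps19, chr2:180257403-180257432 for Rps21, chr9:44407684-44407713 for Rps25. Counted from the RefSeq start, the run begins at −3 in Fau, −16 in Rpl13, −18 in Rpl31, 28 in Rpl36a, −45 in Rps19, −36 in Rps21 and −22 in Rps25. Only in Fau does it span the start, so the capitals mark a run of C and T and are not shown to be the TOP motif of the mRNA.

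Of the 81 ribosomal protein genes tested, 11 were called lower in psilocybin-dark mice (0.263% of all genes tested) and 0 higher. A log2 fold change under 0 was seen in 80 (49.5% of all genes), and 25 did not overlap between the groups (2.21% of all genes). Their median log2 fold change was −0.21 and the median of all genes 0.0016. Fau, which encodes the ribosomal protein eS30 fused to a ubiquitin-like protein, was at 1247 to 1393 (median 1346) in psilocybin-dark mice and 1480.0 to 1659.6 (median 1595) in light mice (log2 fold change −0.25 ± 0.045 (SE), adjusted p = 0.0217). Rps29, a small protein of the 40S subunit, was at 1571 to 1692 (median 1586) in psilocybin-dark mice and 1783 to 2159.7 (median 1959) in light mice (log2 fold change −0.30 ± 0.064 (SE), adjusted p = 0.0360), and neither gene's groups overlapped. Rps21 was at 1908 to 2241 (median 2008) in psilocybin-dark mice and 2216 to 2895 (median 2626) in light mice, with the highest psilocybin-dark mouse above the lowest light mouse (log2 fold change −0.34 ± 0.074 (SE), adjusted p = 0.0369). A further 7 were Rps27a, a fusion of ubiquitin with a ribosomal protein, and Rpl36a, Rpl31, Rps25, Rps19, Rpl13 and Rpl8, with log2 fold changes between −0.30 (Rpl36a) and −0.23 (Rpl8). Many ribosomal protein genes have near-identical processed pseudogenes, so that the level of each single gene is uncertain. Light mice spent 0.781 to 0.923% of their counts on the ribosomal protein genes and psilocybin-dark mice 0.717 to 0.792%, and the 2 ranges overlapped slightly. Dark mice had 0.711 to 0.855% and psilocybin-light mice 0.825 to 0.934%.

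The count of 11 depended on the model and on single libraries. With transcript length and GC content taken out as offsets it was 0, with a median of −0.12. Without libraries 12 and 18 it was 1 (Fau), with 80 genes still under 0 and a median of −0.18. It was 0 without any one of psilocybin-dark libraries 8, 9 and 10 or light libraries 14, 15, 17 and 18, 5 without psilocybin-dark library 11 and 6 without 7. It rose to 21 without psilocybin-dark library 12, to 35 without light library 13, and to 24, 22 and 45 without dark libraries 1, 4 and 6. DESeq2's Wald test called 44 of the 81 lower, and 221 of all 14464 genes.

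Of the 80 oxidative phosphorylation subunits, 3 were called lower (0.263% of all genes tested) and 0 higher. A log2 fold change under 0 was seen in 73 (49.5% of all genes), and 11 did not overlap (2.21% of all genes). The median was −0.14. Uqcr10, a small subunit of complex III, was at 863 to 1041 (median 934) in psilocybin-dark mice and 1063 to 1193 (median 1112) in light mice (log2 fold change −0.25 ± 0.048 (SE), adjusted p = 0.0260). Cox8a of complex IV was at 4086 to 4717 (median 4475) in psilocybin-dark mice and 4807 to 5722 (median 5199.7) in light mice (log2 fold change −0.24 ± 0.053 (SE), adjusted p = 0.0369), and neither overlapped. Atp5me, a subunit of ATP synthase, was at 679 to 799.8 (median 774) in psilocybin-dark mice and 817 to 982 (median 903) in light mice, without overlap (log2 fold change −0.25 ± 0.050 (SE), adjusted p = 0.0323), and psilocybin-dark library 10 was far below the others. Without libraries 12 and 18, 1 subunit (Uqcr10) was called and the median was −0.13. The count was 0 without any one of psilocybin-dark libraries 7 to 10 or light libraries 14, 15, 17 and 18. It was 14 without psilocybin-dark library 12, 10 and 6 without light libraries 13 and 16, and 9 and 15 without dark libraries 1 and 6.

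Further lower genes whose products work in mitochondria or in redox balance were Cox17, Timm9, Mtln, Mpst, Acot13 and Gpx4, of which Cox17 and Mpst were named by the rule and the rest after their values were seen. Cox17, the copper chaperone of complex IV, was at 144 to 191 (median 167) in psilocybin-dark mice and 187 to 244 (median 211) in light mice (log2 fold change −0.35 ± 0.079 (SE), adjusted p = 0.0458), with a small overlap. Mpst, which makes hydrogen sulfide, was at 257 to 309 (median 292) in psilocybin-dark mice and 307 to 394 (median 358) in light mice, where the highest psilocybin-dark mouse lay just above the lowest light mouse (log2 fold change −0.30 ± 0.064 (SE), adjusted p = 0.0360). Timm9, a chaperone of the inner membrane import pathway, had −0.24 (adjusted p = 0.0466), and Mtln, the micropeptide mitoregulin, −0.24 (adjusted p = 0.0415). Gpx4, the peroxidase that protects membranes from lipid peroxidation, had −0.21 (adjusted p = 0.0392) and the thioesterase Acot13 −0.22 (adjusted p = 0.0470). None of these 4 overlapped. The transcripts of the mitochondrial genome itself took 2.97 to 3.51% of the counts in psilocybin-dark mice and 3.02 to 4.59% in light mice. The remaining lower genes, named after their values were seen, were Pcsk1n, an inhibitor of the prohormone convertase PC1, and Map1lc3b, the autophagosome marker LC3B, with log2 fold changes of −0.28 (adjusted p = 0.0486) and −0.19 (adjusted p = 0.0360), and Elob, Rbck1, Rex1bd, Ccdc85b, Trmt1, Mis12 and B3gat3.

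The activity-regulated genes, for which both stimuli are best known, were not told apart at the threshold. Of the 29 early-response genes, 0 were called by edgeR, with 7 at an unadjusted p under 0.05, 1 of them higher and 6 lower in psilocybin-dark mice, while DESeq2 called 0 and limma's voom 4, 2 in each direction. The median log2 fold change was −0.079. Junb, a partner of Fos in the AP-1 factor, was at 859 to 1433 (median 1170.3) in psilocybin-dark mice and 1512 to 2736 (median 1862) in light mice. All 6 psilocybin-dark mice lay below all 6 light mice, and the log2 fold change was −0.73 ± 0.25 (SE), adjusted p = 0.140. The dark mice, at 459 to 1398 (median 1050.4), overlapped the psilocybin-dark mice, and the psilocybin-light mice had the highest median, 2518. Npas4, a transcription factor induced by calcium entry, was at 249 to 353 (median 332) in psilocybin-dark mice and 351 to 697 (median 502) in light mice, with 4 psilocybin-dark mice below every light mouse (log2 fold change −0.67, 95% interval −1.23 to −0.10, adjusted p = 0.238). Both passed when only the 12 libraries compared were fitted, with edgeR adjusted p = 0.0379 for Junb and 0.0470 for Npas4. Btg2 and Ier2, chosen after their values were seen, had log2 fold changes of −0.63 (adjusted p = 0.168) and −0.54 (adjusted p = 0.153).

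**Figure D3:**
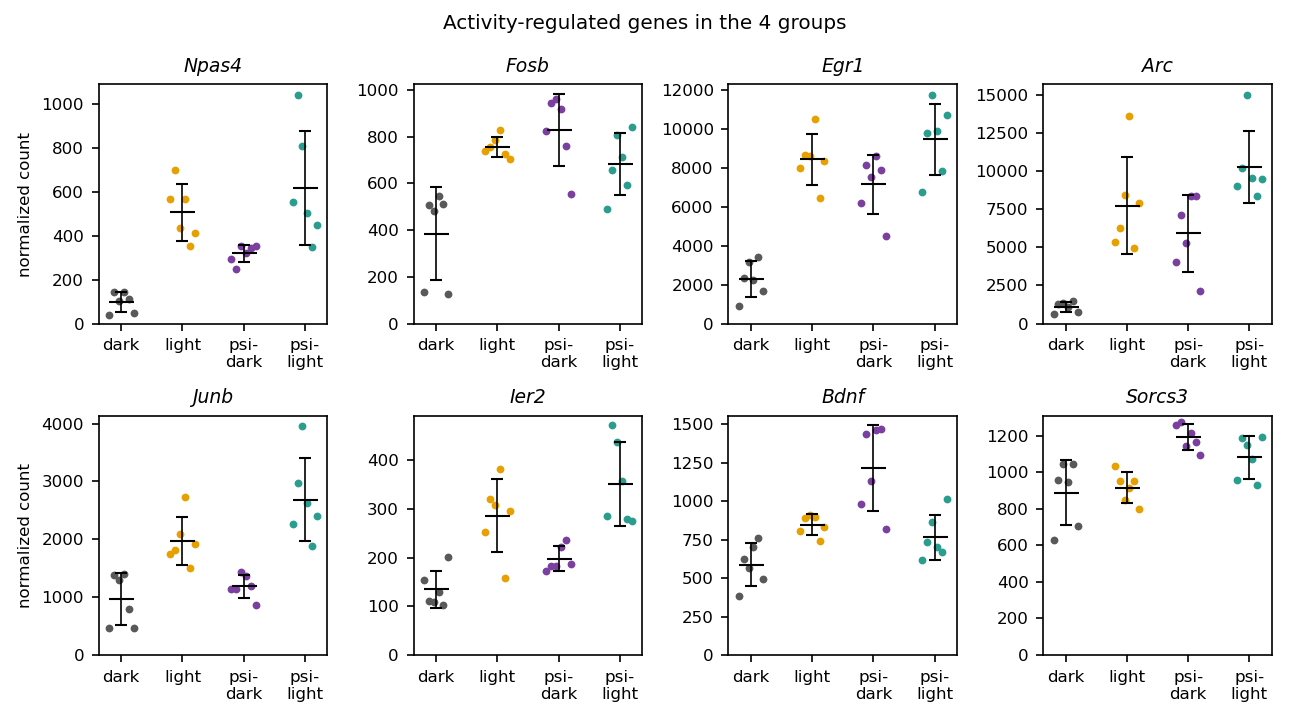
Normalized counts of 6 early-response genes (Npas4, Fosb, Egr1, Arc, Junb and Ier2) and 2 late-response genes (Bdnf and Sorcs3), 1 point per mouse in the 4 groups, with the mean and SD of 6 mice in black and axes from 0. None was called between psilocybin-dark and light mice, and Junb and Sorcs3 are the 2 whose groups do not overlap.

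The other early genes that are standard readouts of light in this cortex gave wide intervals. The log2 fold change of Egr1 was −0.24, 95% interval −0.70 to 0.22, adjusted p = 0.712, and that of Arc −0.39, 95% interval −0.98 to 0.20, adjusted p = 0.605. Fosb had 0.13, 95% interval −0.42 to 0.68, adjusted p = 0.908. The normalized count of Arc was 2159 to 8377 (median 6221) in psilocybin-dark mice and 4915 to 13567 (median 7071) in light mice, so that the spread within each group was larger than the difference. A change by 1 on the log2 scale in either direction lies outside the interval of Egr1 and of Fosb, but not of Npas4, whose interval reaches beyond it on the negative side. Atf3, Fosl2 and Klf10, chosen after their values were seen, had the most positive values of the list, 0.74 (adjusted p = 0.216), 0.46 (adjusted p = 0.473) and 0.43 (adjusted p = 0.389). Fosl2 was at 847 to 1833 (median 1533) in psilocybin-dark mice and 937 to 1299 (median 1008) in light mice, and 5 psilocybin-dark mice lay above every light mouse while library 12 lay below every one.

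Among the 27 late-response genes, 0 were called by edgeR, with 4 at an unadjusted p under 0.05, all higher in psilocybin-dark mice. DESeq2 called 2 and limma's voom 5, also higher, where they called 184 and 782 of all 14464 genes higher. The values were on the positive side for 25 of the 27, and the median was 0.17. Sorcs3, a sorting receptor of the postsynaptic membrane, was at 1096 to 1276 (median 1192) in psilocybin-dark mice and 799 to 1037 (median 932) in light mice, without overlap (log2 fold change 0.38 ± 0.10 (SE), adjusted p = 0.0781), and DESeq2 gave it an adjusted p of 0.0257. Bdnf and Pcsk1 were chosen after their values were seen. Bdnf, the neurotrophin, was at 816 to 1469 (median 1284) in psilocybin-dark mice and 743 to 913 (median 863) in light mice, and 5 of the 6 psilocybin-dark mice lay above every light mouse (log2 fold change 0.52 ± 0.16 (SE), adjusted p = 0.0997). The exception was library 12. In psilocybin-light mice the median of Bdnf was 718 and in dark mice 595. Pcsk1, the convertase that processes neuropeptides and proBDNF, was at 1488 to 2397 (median 2093) in psilocybin-dark mice and 1237 to 1683 (median 1576) in light mice, again with 5 of 6 above every light mouse (log2 fold change 0.42 ± 0.14 (SE), adjusted p = 0.132). Without libraries 12 and 18 the median of the list was 0.27, with 26 of 27 above 0 and 0 called. The neuropeptide Adcyap1 (PACAP) had a like pattern, at 424 to 732 (median 555) in psilocybin-dark mice and 355 to 425 (median 376) in light mice (log2 fold change 0.56 ± 0.26 (SE), adjusted p = 0.313).

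The other lists, described in turn, had 0 called genes in edgeR's test. Of the 187 genes in them 27 were at an unadjusted p under 0.05. Counted list by list, DESeq2 called 9 and limma's voom 25, where they called 405 and 1627 of all genes tested. Of the 27 genes of serotonin receptors and Gq signalling, the path on which psilocin acts, 18 were above 0, with a median of 0.084. The 5-HT2A receptor gene Htr2a was at 323 to 665 (median 579.8) in psilocybin-dark mice and 277 to 493 (median 442) in light mice (log2 fold change 0.39, 95% interval −0.041 to 0.82, adjusted p = 0.415). The smallest p of that list was that of Htr5b, at 50.05 to 80.3 (median 68.1) in psilocybin-dark mice and 30.1 to 52.7 (median 41.3) in light mice, with 5 psilocybin-dark mice above every light mouse (log2 fold change 0.71 ± 0.26 (SE), adjusted p = 0.162). The 36 glutamate and GABA receptor genes had 30 above 0 and a median of 0.12, led by Gabrb2, a GABA-A receptor subunit, at 2229 to 2828 (median 2574) in psilocybin-dark mice and 1684 to 2377 (median 1929) in light mice (log2 fold change 0.37 ± 0.10 (SE), adjusted p = 0.0671). The 22 MAP kinase feedback and GTPase regulators had a median of 0.079, and their smallest p was that of the phosphatase gene Dusp4 (log2 fold change 0.52 ± 0.19 (SE), adjusted p = 0.166). Of the 19 clock genes, Clock, an activator of the clock, had the smallest p, at 1869.8 to 2242 (median 2129.9) in psilocybin-dark mice and 1581 to 1985 (median 1785) in light mice, with overlap (log2 fold change 0.24 ± 0.067 (SE), adjusted p = 0.0837). The repressor Bhlhe41, chosen after its values were seen, was at 499 to 696 (median 612) in psilocybin-dark mice and 697 to 829 (median 739) in light mice, without overlap (log2 fold change −0.29 ± 0.084 (SE), adjusted p = 0.0837). The list's median was −0.045.

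Chaperones and stress genes of the endoplasmic reticulum (21 tested) had 16 values under 0 and a median of −0.051. The co-chaperone Sdf2l1 was at 202 to 317 (median 257) in psilocybin-dark mice and 262 to 439 (median 354) in light mice, with 5 psilocybin-dark mice below every light mouse (log2 fold change −0.49 ± 0.12 (SE), adjusted p = 0.0572), and Ddit3 (CHOP), Creld2 and Herpud1, chosen after their values were seen, had −0.28 (adjusted p = 0.0576), −0.37 (adjusted p = 0.0645) and −0.28 (adjusted p = 0.0671). Of the 23 glucocorticoid-responsive genes, 16 were under 0, with a median of −0.091, and Zbtb16 (PLZF) had the smallest p, with 0.42 (adjusted p = 0.0793). The 22 cold-inducible and splicing genes had 17 under 0 and a median of −0.082, where Tra2a, a splicing activator, was at 928 to 993 (median 955) in psilocybin-dark mice and 1031 to 1159 (median 1086) in light mice, without overlap (log2 fold change −0.18 ± 0.055 (SE), adjusted p = 0.100). The 18 neuropeptide genes had a median of −0.035. Igf1r, the receptor of insulin-like growth factor, the acetyltransferase Crebbp, the topoisomerase Top1 and the deacetylase Hdac5 had log2 fold changes of 0.071 (adjusted p = 0.847), 0.11 (adjusted p = 0.750), 0.026 (adjusted p = 0.894) and −0.062 (adjusted p = 0.724).

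**Figure D4:**
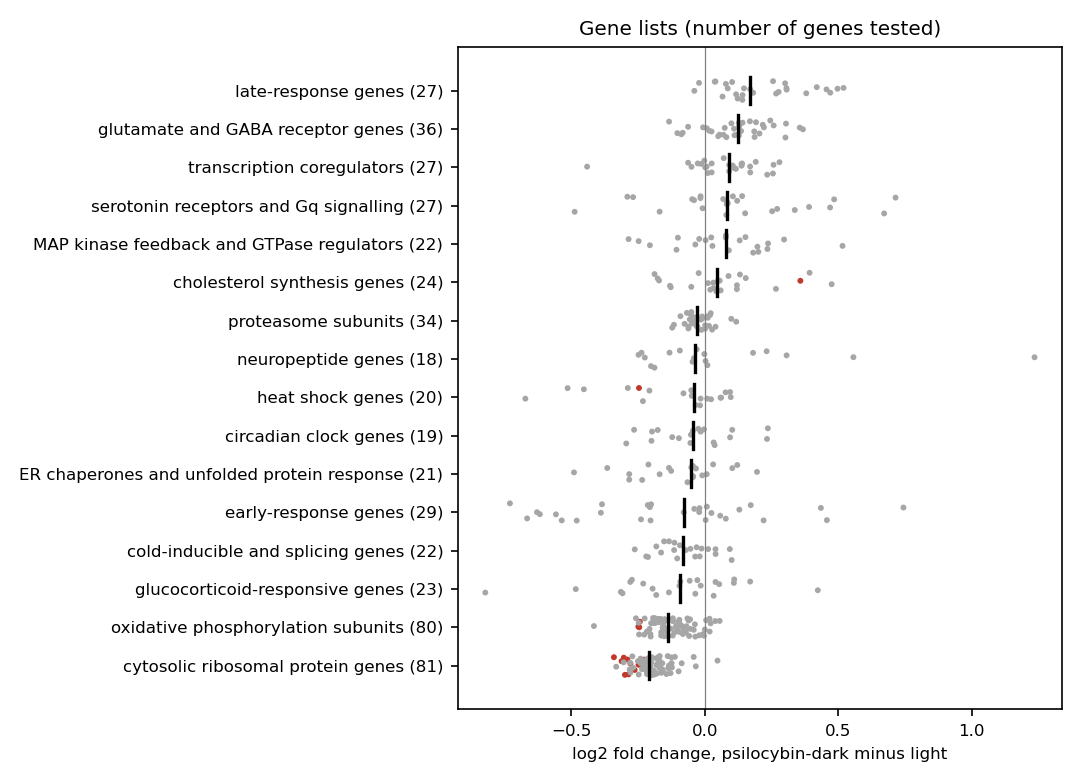
Log2 fold changes of psilocybin-dark against light mice for the members of 16 gene lists, 1 point per gene (red where called), with the list's median as a black bar and the number of genes tested in brackets. The lists of ribosomal proteins and oxidative phosphorylation lie left of 0 at −0.21 and −0.14, and that of late-response genes to the right at 0.17.

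Called genes differed in the length and base composition of their transcripts as well as in function. The 28 higher genes had a median transcript of 6815 bases with 45.3% GC and the 38 lower genes one of 1644 bases with 56.2% GC, against 3492 bases and 50.3% over the genes tested. The 14427 genes with an annotated transcript were split into 4 classes of like size by length. In the shortest class (up to 2202 bases) 24 genes were called lower and 0 higher, and in the longest (from 5199 bases) 20 were higher and 0 lower. From the shortest class to the longest, the median log2 fold change went from −0.081 through −0.025 and 0.021 to 0.092. Across genes the log2 fold change had a Spearman rank correlation of 0.44 with transcript length and of −0.32 with GC content, given as a description since genes of the same libraries are not independent. The ribosomal protein genes, with a median transcript of 1096 bases, had a median of −0.21 where the shortest class had −0.081.

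The dependence on length differed between libraries. The slope of a library's log2 levels on log2 transcript length, relative to the mean of all libraries, was −0.0067 to 0.068 (median 0.043) in psilocybin-dark mice and −0.057 to 0.010 (median −0.040) in light mice, with the lowest psilocybin-dark value in library 12. It was 0.00078 to 0.063 in dark mice and −0.050 to −0.028 in psilocybin-light mice. When length and GC content were fitted in each library and taken out as offsets, a setting added once the data had been seen, 0 genes were called by edgeR and 1029 of 14427 were at an unadjusted p under 0.05. All 66 genes kept their sign, with a median absolute log2 fold change of 0.18. The median of the ribosomal protein genes was then −0.12 with 79 of 81 under 0, that of the oxidative phosphorylation subunits −0.043 with 52 of 80 under 0, and that of the late-response genes 0.17 with 26 of 27 above 0. The glutamate and GABA receptor genes, with a median transcript of 5614 bases, had a median of 0.040 with 23 of 36 above 0. The transcription coregulators, with a median transcript of 8267 bases, had a median of 0.020 with 17 of 27 above 0. RNA quality values per mouse were not used here, and the part of RNA or library quality in the dependence on length was not tested.

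**Figure D5:**
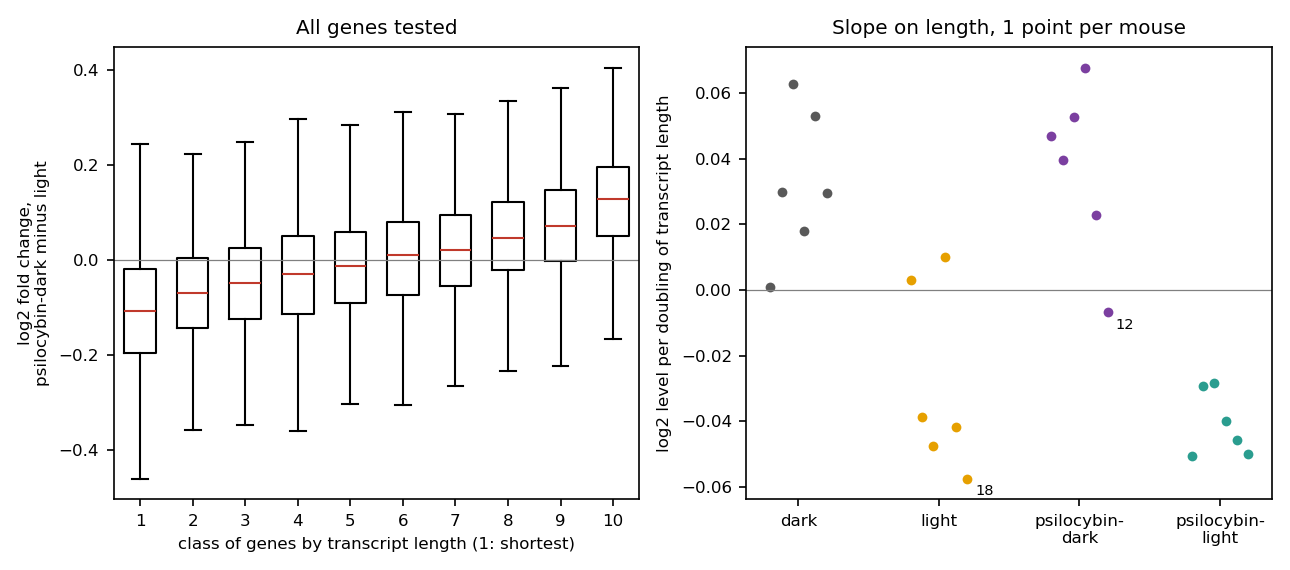
Left, log2 fold changes of psilocybin-dark against light mice for the genes tested, in 10 classes of equal size by transcript length (boxes: quartiles and median in red, whiskers to 1.5 times the interquartile range, points beyond not drawn). Right, slope of log2 level on log2 transcript length, 1 point per mouse, with libraries 12 and 18 marked. Medians run from under 0 in the shortest class to above 0 in the longest, and psilocybin-dark mice lie above light mice except for library 12, which lies within the light range.

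The called genes were then followed in psilocybin-light and dark mice, a step chosen after the data were seen. These 2 groups were not part of the contrast that chose the genes, but their libraries helped to set its spread between mice. Of the 38 genes lower in psilocybin-dark than in light mice, 36 were higher in psilocybin-light than in dark mice (46.8% of all genes). Of these 36, 31 were called, where 17.4% of all genes tested were called higher. Of the 28 genes higher in psilocybin-dark mice, 22 were lower in psilocybin-light than in dark mice (53.2% of all genes). Of these 22, 17 were called, where 21.0% of all genes were called lower. Psilocybin-light and dark mice also differed in the slope on transcript length (−0.050 to −0.028 against 0.00078 to 0.063). The shares over all genes are not matched for length, and the part of length in these counts was not tested. Gfpt1 had a log2 fold change of −0.38 (adjusted p = 2.41e-08), Slc25a28 of 0.32 (adjusted p = 2.74e-05) and Rps21 of 0.37 (adjusted p = 0.000366) in that contrast. Against dark mice, the same genes gave −0.32 (adjusted p = 3.79e-07), 0.36 (adjusted p = 9.24e-06) and 0.30 (adjusted p = 0.00372) in light mice and −0.12 (adjusted p = 0.00296), 0.054 (adjusted p = 0.449) and −0.044 (adjusted p = 0.707) in psilocybin-dark mice, 2 contrasts that share the dark libraries (31.9% and 24.7% of all genes called). By the fitted levels of the 4 groups, psilocybin-dark mice were the highest in 15 of the 28 higher genes and dark mice in the other 13, and psilocybin-dark mice were the lowest in 29 of the 38 lower genes and dark mice in the other 9. The genes were chosen by psilocybin-dark against light, so light mice could not be highest in the former or lowest in the latter. That choice also favours psilocybin-dark mice as the extreme group, so these counts are a description only. Hectd2, Usp53 and Hsd17b7, picked as examples after their values were seen, lay above the dark mice. Hectd2 had 0.62 (adjusted p = 0.000676), Usp53 0.47 (adjusted p = 0.000439) and Hsd17b7 0.32 (adjusted p = 0.00228) in psilocybin-dark against dark mice, and 0.078 (adjusted p = 0.645), 0.18 (adjusted p = 0.108) and −0.022 (adjusted p = 0.838) in psilocybin-light against dark mice. Hsf1 was highest in light mice, with dark, psilocybin-dark and psilocybin-light medians of 518, 519.8 and 526 against 616.

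The number of called genes, 66, depended on the test and on single libraries. DESeq2's Wald test called 405 genes, 184 higher and 221 lower, all 66 among them. Leaving out light library 15 left 3 genes, Gfpt1, Zfp771 and Slc25a28, which no fit without 1 library lost. The count was 6 without any one of psilocybin-dark libraries 8, 9 and 10, 19 without 7, and 7, 9 and 10 without light libraries 14, 17 and 18. It was 241 without psilocybin-dark library 12 and 215 without light library 13. Libraries of the dark group, which entered the fit through the shared spread between mice, moved it to 183, 104 and 328 when 1, 4 or 6 was left out, and to 651 when both 1 and 6 were. The median absolute difference of the called genes, 0.26, stands against a median standard error of 0.0998 over all genes. That median is taken over genes already called, the smallest at 0.16, so it is not a limit of detection. Small differences may have been missed with 6 mice a group.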

How the data were processed

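Visual cortex RNA of 24 male mice, 6 per group, was sequenced after poly-A enrichment. The authors trimmed reads with cutadapt (reads under 30 bases dropped), mapped them with STAR and assigned them to genes with htseq-count. Deposited were the resulting raw counts for 55414 genes, before any normalization. The study's methods name GRCm39 and the submitters' processing notes mm10. The annotation release and the strand setting of the counting were not given in the sources used here, so reads of a gene and of an antisense partner may be mixed. Groups follow the headings of the study's count table, whose counts equalled the deposited ones for all 1457 genes compared.

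The 14464 genes that reached 30 counts in 1 or more libraries were tested in R 4.3.3 with edgeR 4.0.16. TMM scaling and a quasi-likelihood model with 1 term per group were applied to all 24 libraries (biological coefficient of variation 0.182), tests were two-sided, and p-values were adjusted over all genes tested by the Benjamini-Hochberg procedure. Totals of 13552516 to 17906994 counts in the 12 libraries gave a median standard error of 0.0998 on the log2 scale. Replicates of 1 group differed by more than sampling noise in all 30 pairs. Nothing but the labels shows that libraries are separate mice, and p-values measure the spread between them. Positions, transcript length and GC content came from GENCODE vM39 (GRCm39), which names 14427 of the genes, and promoters from RefSeq (GRCm38.p6).

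Named genes are up to 15 per direction with the largest fold change among called genes whose mean count was 10 or more, the 5 smallest p-values per direction, genes the study names, and list members past the threshold (otherwise the member with the smallest p). Others are said to be chosen after their values were seen, and some genes are not reported here. The 16 gene lists and 16 marker lists, like the comparison itself, were chosen with earlier results of these data known. Alternatives were DESeq2 1.42.0, limma 3.58.1 (voom with quality weights), DESeq2's size factors, other filters, other sets of libraries, 1 surrogate variable (sva 3.50.0), a hippocampal marker covariate, stricter thresholds, the sample labels' light exposure, each library left out and, added after the data were seen, length and GC offsets (splines with 5 degrees of freedom) and the fit without dark libraries 1 and 6. The fit was tested on simulated data before use. Mice far from their group were screened by Dixon's ratio (critical value 0.625). Figures were drawn with matplotlib in Python.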

Additional observations from a re-analysis of the deposited data

Results flagged for a closer look

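Each group of 6 mice was screened for a single mouse far from the other 5, over library measures, marker sums and named genes. Of 216 groups screened 26 had such a mouse, where chance alone gives about 1 in 20.

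Most of them trace to psilocybin-dark library 12 and light library 18. On the first principal component library 12 lay at −38.8 (others 6.04 to 24.3) and library 18 at −30.3 (others 13.0 to 21.5), and on the second library 18 lay at 25.3. The summed level of cerebellar neuron markers was 2205 and 1372 CPM, and that of cortical glutamatergic neuron markers 4100.1 in library 12 and 4537 in library 18, below the other mice of their groups. GABAergic markers summed to 1616 in library 12 and meningeal fibroblast markers to 2997.5 in library 18. Cbln1, a cerebellar granule cell gene, had 5257 and 3317 normalized counts in libraries 12 and 18. Tdo2 had 51.0 and 21.1, Dcn 466 in library 18, and Vip 699 in library 12, the last below its group.

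Choroid plexus and blood accounted for others. Light library 14 had 1980.0 normalized counts of Ttr and a choroid plexus marker sum of 145 CPM, and its hippocampal marker sum was 49.2. Psilocybin-dark library 10 had 612 normalized counts of Hbb-bt and a red blood cell marker sum of 293. Psilocybin-dark library 7 had the highest share of mitochondrial transcripts in its group, 3.51%, and the highest astrocyte marker sum, 5509 CPM. Light library 17 had 267 CPM of oligodendrocyte precursor markers.

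Among the called genes, 3 had such a mouse. Apba3 was at 437 in light library 18 (others 329.7 to 361), which lies away from the psilocybin-dark mice. Hsd17b7 was at 444 in light library 13 (others 365 to 393), which lies towards them. Atp5me was at 679 in psilocybin-dark library 10 (others 768 to 799.8). Without libraries 12 and 18 the log2 fold change of Apba3 was −0.37 and that of Hsd17b7 0.39.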

How the results depend on the processing

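The counts of called genes (66 in all, 28 of them higher after psilocybin in the dark and 38 lower, with 11 ribosomal protein genes and 3 oxidative phosphorylation subunits among the lower ones) moved by more than 1.5 times under most alternatives, while the sign of all 66 genes was kept in every one. DESeq2's Wald test called 405, 184 higher and 221 lower, with 44 ribosomal protein genes and 20 subunits. Limma's voom with quality weights called 1627, 782 and 845, with 67 and 36. The fit of only the 12 libraries compared called 243, 94 and 149, with 29 and 5. Without the dark group 686 were called, 343 and 343, with 56 and 21, and without dark libraries 1 and 6 651, 324 and 327, with 55 and 21. With 1 surrogate variable there were 583, 265 and 318, with 52 and 22. The hippocampal marker covariate gave 122, 53 and 69, with 19 and 4. DESeq2's size factors gave 60, 29 and 31, filterByExpr 49, 26 and 23 (2 subunits), and the robust fit 67, 29 and 38. Without libraries 12 and 18 there were 40, 21 and 19, with 1 and 1.

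No filter on low counts gave 0 in each count, with 31758 genes in the fit and the adjustment (2517 at an unadjusted p under 0.05). Length and GC offsets gave 0 in each count, with 1029 genes at an unadjusted p under 0.05. An adjusted p under 0.01 left 3 genes, 1 higher and 2 lower, and 0 of both lists, and no called gene reached an absolute log2 fold change of 1 (0 in each count). Leaving out 1 library at a time gave 3 to 328 genes in all, 1 to 148 higher, 2 to 180 lower, 0 to 45 ribosomal protein genes and 0 to 15 subunits. The lowest total came without light library 15 and the highest without dark library 6. The light exposure of the sample labels left every count as it was. The cause of these shifts was not tested.

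For single genes chosen by the naming rule, 1018 of the values under alternatives kept their side of the threshold, 116 lost it and 56 gained it. The sign changed in 0 of 602 values for the 43 of these genes that were called, and in 8 of 588 values for the 42 that were not, in 6 genes (Igf1r and Top1 with length and GC offsets among them). Leaving out 1 library at a time gave both signs for 5 genes that were not called, among them Cbln1 (−1.24 to 2.58) and Tdo2 (−0.69 to 1.08). No paired analysis was possible because library numbers are not shared between the groups. Depth and the 6 mice a group limit what could be seen, with a median standard error of 0.0998 on the log2 scale.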

Other observations

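Without libraries 12 and 18, which carried cerebellar RNA, 10 genes were called that were not among the 66. They are named because of that call, after their values were seen. Lower in psilocybin-dark mice were Rgl2, an effector of Ras-family GTPases, with a log2 fold change of −0.45, Hps4 (−0.36), Ypel4 (−0.35), the helicase gene Ercc2 (−0.27), Nosip (−0.23), Cuedc2 (−0.19), Dtx3 (−0.18) and the predicted gene Gm5577 (−1.15). Higher were Avl9 (0.20) and the RIKEN gene 2510009E07Rik (0.34). With all 24 libraries in the fit, the adjusted p-values of these 10 lay between 0.0529 (Gm5577 and Ypel4) and 0.0903 (Ercc2) in edgeR's test.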
